A study of Mus musculus with 9 samples.

Results

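The fetal gene program of the heart is a set of genes that cardiac muscle uses before birth, lowers after birth and uses again under load or injury. It was followed here in mouse hearts through 8 genes of the 54532 in the count table. They are the natriuretic peptide genes Nppa and Nppb, the myosin heavy chain genes Myh6 and Myh7, the sarcomeric actin genes Acta1 and Actc1, and the atrial myosin light chain genes Myl4 and Myl7. The 8 were listed by name as known genes of this program, with no threshold on a measured value, though with earlier results of these data known.

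RNA of heart tissue was sequenced from male mice of the C57BL/6J strain without any genetic change (WT), aged 8 to 10 weeks, with 3 animals and so 3 libraries in each of 3 groups. In the sham group the chest was opened and a thread was passed under the left anterior descending coronary artery without tying it. In the MIRI group (myocardial ischemia/reperfusion injury) the artery was tied for 30 min and blood flow was then restored for 24 h, with saline given by the tail vein. In the GXNI group the same operation was combined with 9 mL/kg of Guanxinning injection, a preparation of Danshen and Chuanxiong, also given by the tail vein and within 10 min of ischemia. All groups shared the opened chest and an injection, and no group received the injection without ischemia. The labels name cardiomyocytes as the cell type, whereas the markers of endothelial cells, fibroblasts, smooth muscle, macrophages and neutrophils were all detected, so the values describe whole heart tissue. In such bulk samples, fewer cells of a type and less RNA per cell cannot be told apart.

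Atrial natriuretic peptide (from Nppa) and B-type natriuretic peptide (from Nppb) are hormones that cardiac muscle releases when it is stretched. They lower blood volume and pressure through guanylyl cyclase receptors. In the mouse ventricle, the heavy chain of myosin switches around birth from the slow beta form (Myh7) to the fast alpha form (Myh6), and the actin of the thin filament shifts from a mixture with the skeletal form (Acta1) towards the cardiac form (Actc1). The light chains Myl4 and Myl7 are made throughout the embryonic heart and later mainly in the atria. A return of the natriuretic peptides, Myh7 and Acta1 together with a loss of Myh6 is the textbook sign of a stressed ventricle.

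The natriuretic peptide genes and the myosin heavy chain genes each form a neighbouring pair in the genome (build GRCm38). Nppb (ENSMUSG00000029019, chr4:147985788-147987205, forward strand) and Nppa (ENSMUSG00000041616, chr4:148000722-148002079, forward strand) were separated by 13516 bases. Myh6 (ENSMUSG00000040752, chr14:54941921-54966927, reverse strand) and Myh7 (ENSMUSG00000053093, chr14:54970684-54994626, reverse strand) were separated by 3756 bases. Acta1 (ENSMUSG00000031972) lies on the reverse strand at chr8:123891769-123894751 and Actc1 (ENSMUSG00000068614) on the reverse strand at chr2:114047282-114053548. Myl4 (ENSMUSG00000061086) lies on the forward strand at chr11:104550663-104595753 and Myl7 (ENSMUSG00000020469) on the reverse strand at chr11:5896637-5898782. Nppb and Myl7 overlap no other annotated gene. The other 6 overlap genes on the opposite strand, among them Gm13054 at Nppa and the long noncoding RNA Mhrt at Myh7. Whether reads were counted by strand is not given in the sources used here, so reads of such partners could not be told apart, and neither could reads shared by the near-identical coding parts of Acta1 and Actc1 or of Myh6 and Myh7.

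All 8 genes had an entry among the RefSeq promoter sequences of GRCm38.p6. The 250 bases before the start of 5 of them are printed below because these genes carry the main differences between the groups. Capitals mark matches, on either strand, to motifs of factors known from cardiac muscle. These are GATAA (GATA factors), CATTCC (the M-CAT element of TEAD factors), TGANTCA (AP-1), GGAAA (the core of an NFAT site), the CArG box (serum response factor) and the MEF2 box. No 2 of these matches overlapped in the sequences shown. RefSeq places the starts of Nppb, Myh6 and Actc1 inside the outer limits given above, so that these 3 windows reach into the genes as annotated by GENCODE.
Nppa, chr4:148000472-148000721, forward strand: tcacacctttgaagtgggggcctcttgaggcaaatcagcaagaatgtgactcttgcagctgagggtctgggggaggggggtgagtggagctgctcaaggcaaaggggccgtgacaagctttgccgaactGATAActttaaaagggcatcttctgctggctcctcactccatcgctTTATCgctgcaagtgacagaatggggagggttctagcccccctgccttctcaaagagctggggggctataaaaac
Nppb, chr4:147985650-147985899, forward strand: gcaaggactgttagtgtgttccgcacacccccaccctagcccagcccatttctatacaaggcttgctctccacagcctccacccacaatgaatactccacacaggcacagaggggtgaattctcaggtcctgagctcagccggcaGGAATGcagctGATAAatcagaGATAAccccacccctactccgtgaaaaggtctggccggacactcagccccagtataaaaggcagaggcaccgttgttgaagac
Myh6, chr14:54966608-54966857, reverse strand: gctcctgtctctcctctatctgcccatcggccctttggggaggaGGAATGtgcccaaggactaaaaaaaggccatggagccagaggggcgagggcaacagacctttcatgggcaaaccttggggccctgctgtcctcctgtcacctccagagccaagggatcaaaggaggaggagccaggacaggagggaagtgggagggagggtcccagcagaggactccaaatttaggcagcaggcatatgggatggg
Acta1, chr8:123894776-123895025, reverse strand: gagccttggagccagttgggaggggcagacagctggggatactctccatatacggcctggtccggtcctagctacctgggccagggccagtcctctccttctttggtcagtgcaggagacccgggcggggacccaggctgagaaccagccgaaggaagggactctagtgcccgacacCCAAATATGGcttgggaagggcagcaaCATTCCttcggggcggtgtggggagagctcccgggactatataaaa
Actc1, chr2:114052876-114053125, reverse strand: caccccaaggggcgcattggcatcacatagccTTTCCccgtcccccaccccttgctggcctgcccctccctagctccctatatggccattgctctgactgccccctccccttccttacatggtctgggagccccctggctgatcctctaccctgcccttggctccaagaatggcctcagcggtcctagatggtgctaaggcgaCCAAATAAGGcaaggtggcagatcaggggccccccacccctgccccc

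The natriuretic pair shared GATAA, which occurred at 121 and 75 bases before the start of Nppa and at 94 and 83 bases before the start of Nppb. Both sarcomeric actins held a CArG box, at 73 bases before the start of Acta1 and at 47 bases before that of Actc1. Over windows that also included the 50 bases after the start, GATAA was held by 3 of the 8 genes (Nppa, Nppb and Myl7), against 25.4% of all 32851 promoter windows. The M-CAT element was held by 5 of the 8 (Nppb, Myh6, Myh7, Acta1 and Myl7), against 14.7%. Myh7 had 2 windows, and only the window starting at its outer limit given above held the M-CAT element. A gene was counted if any of its windows held a motif, whereas the percentages are per window. The CArG box was held by 3 of the 8 (Acta1, Actc1 and Myl7), against 1.63%, and the NFAT core by 3 of the 8 (Myh7, Actc1 and Myl4), against 61.3%. No window of the 8 held the AP-1 motif, found in 7.81% of all windows, or the MEF2 box, found in 3.19%. These letters are a description of the sequence, and binding of any factor was not measured.

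Some facts of the whole table bear on every value below. The libraries held between 17119454 and 22811295 counts, of which mitochondrial genes took between 23.0% and 29.8%, and 3 counts corresponded to between 0.132 and 0.175 CPM (counts scaled to library size). The library labelled MIRI 2 stood apart from the other MIRI libraries, and the GXNI libraries were spread widely, with the one labelled GXNI 3 at the far end. On the first principal component of log2 CPM, which held 64.7% of the variance, the sham libraries lay between -59.8 and -52.2. The library labelled MIRI 2 lay at -44.5 beside GXNI 1 at -43.5, and GXNI 2 lay at 18.8. MIRI 1 lay at 61.5, and the library labelled GXNI 3 at 94.4 beyond MIRI 3 at 83.3. DESeq2 log2 fold changes recomputed under the deposited labels differed from those tabulated with the paper by a median of 0.396 over 1701 genes for MIRI against sham and of 0.750 over 1904 genes for GXNI against MIRI. With the labels of these 2 libraries exchanged, the median differences were 4.145e-07 and 1.586e-06. The fold changes tabulated with the paper thus match the exchanged grouping and not the deposited labels. Which grouping is right for the animals could not be told. The deposited labels are used throughout, and values with the 2 labels exchanged are given beside the main ones for the 8 genes, the shares and the lists. The comparison of all 6 ischemia-reperfusion libraries with sham does not depend on which of the labels is right. Following the thresholds of the study, calls rest on edgeR's quasi-likelihood test, with a 1.5-fold difference or more and an unadjusted p no larger than 0.01. The p-values printed for these fits are Benjamini-Hochberg adjusted over all genes tested, and a called gene can therefore have an adjusted p above 0.05. A call said to be lost had an unadjusted p above 0.01 in that setting. Where groups are said not to overlap, the share of all genes that separate in the same way was not counted.

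In MIRI against sham, which asks what ischemia and reperfusion changed, both natriuretic peptide genes and the skeletal actin gene rose, while the cardiac myosin genes were not called. Of the 8 genes, all of which passed the filter on low counts, 3 were called higher and 0 lower, where 6.15% of the 14644 genes tested were called higher and 2.82% lower. At an unadjusted p under 0.05 there were 5 higher and 0 lower by edgeR, and DESeq2 called 4 higher and 0 lower, against 5.34% and 2.72% of all genes it tested. With the 2 labels exchanged, 4 were called higher and 1 lower of 7 tested, where 19.2% and 16.6% of the 14853 genes tested were called. The median log2 fold change of the 8 was 0.93, against 0.00 over all genes tested.

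**Figure D1:**
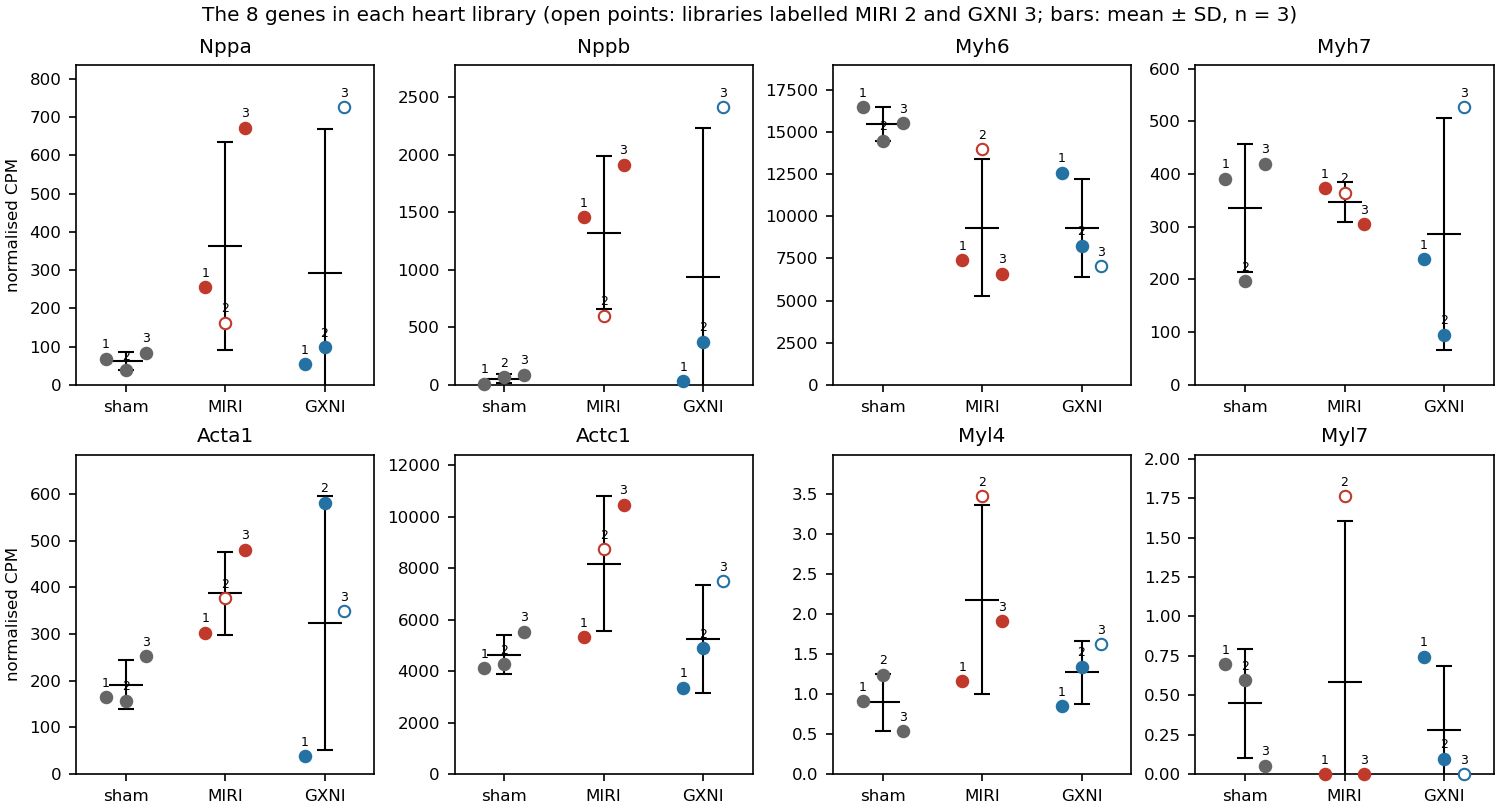
Normalised CPM (vertical axes, linear, from 0) of each of the 8 genes in the 9 libraries, by group. Points carry the replicate number, open points are the libraries labelled MIRI 2 and GXNI 3, and bars give the mean ± SD of 3 libraries, drawn down to 0 at most; Nppa and Nppb are high in MIRI 1, MIRI 3 and GXNI 3, the same libraries in which Myh6 is lowest.

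Nppb, the gene of B-type natriuretic peptide, showed the largest change of the 8 under these labels. Its normalised CPM was 10.6, 69.0 and 87.7 in sham 1 to 3, 1455, 602 and 1915 in MIRI 1 to 3, and 32.7, 377 and 2416 in GXNI 1 to 3. All MIRI libraries lay above all sham libraries, whereas GXNI 1 lay within the sham range. The mean was 55.8 ± 40.2 (SD, n = 3) in sham and 1324 ± 667 (SD, n = 3) in MIRI, and the log2 fold change was 4.58 ± 0.84 (SE, adjusted p = 0.0662, edgeR). With the 2 labels exchanged it was 5.12 ± 0.68 (adjusted p = 0.00043, edgeR). In rank of raw counts among all genes, Nppb moved from place 8246, 2001 and 1539 in sham 1 to 3 to place 40, 179 and 36 in MIRI 1 to 3.

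Nppa, the gene of atrial natriuretic peptide, moved with its neighbour but by less. Its normalised CPM was 68.2, 38.3 and 83.8 in sham 1 to 3, 256, 163 and 672 in MIRI 1 to 3, and 54.0, 98.1 and 727 in GXNI 1 to 3. The MIRI and sham libraries did not overlap, and GXNI 1 again lay within the sham range. The mean rose from 63.4 ± 23.1 in sham to 364 ± 271 in MIRI (SD, n = 3 each), a log2 fold change of 2.53 ± 0.56 (SE, adjusted p = 0.0776, edgeR). The exchanged labels gave 3.12 ± 0.42 (adjusted p = 0.000453, edgeR). The call was lost without sham 1 (2.58) and without sham 2 (2.26).

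The proportion of the 2 peptides varied widely within sham. The Nppb share of the counts of the pair was 13.5%, 64.3% and 51.1% in sham 1 to 3, 85.0%, 78.7% and 74.0% in MIRI 1 to 3, and 37.7%, 79.3% and 76.9% in GXNI 1 to 3. Every MIRI library lay above every sham library, and sham 1 and GXNI 1 were the only libraries under 50%. The mean was 43.0% ± 26.4 in sham and 79.3% ± 5.53 in MIRI (SD, n = 3 each), a difference of 36.3 percentage points. The two-sided exact permutation test gave p = 0.1, the smallest that 3 against 3 allows, and an adjusted p of 0.45 over 9 tests of shares. The difference was 21.5 percentage points without sham 1, and 35.7 with the 2 labels exchanged (p = 0.1, exact permutation test). Per kilobase of exon, Nppb took place 6, 4 and 4 among the 8 genes in sham 1 to 3 and place 2, 3 and 2 in MIRI 1 to 3. It stood above Myh6 in MIRI 1 (1864 against 1100 normalised CPM per kilobase), MIRI 3 (2452 against 981) and GXNI 3 (3093 against 1048).

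Acta1, which encodes skeletal muscle alpha actin, was also called. Its normalised CPM was 165, 157 and 252 in sham 1 to 3, 303, 377 and 480 in MIRI 1 to 3, and 38.8, 581 and 349 in GXNI 1 to 3. All MIRI libraries exceeded all sham libraries, while the GXNI libraries held both the lowest and the highest value of the 9. The log2 fold change of MIRI against sham was 1.02 ± 0.25 (SE, adjusted p = 0.0851, edgeR), and 0.98 ± 0.22 (adjusted p = 0.00551, edgeR) with the labels exchanged. The call was lost without sham 1 (0.92), sham 2 (0.89) or MIRI 3 (0.84). The list of fast skeletal muscle markers, 8 genes of which Myh4 was at 0 in every library, summed to between 1.99 and 2.68 normalised CPM in sham, 3.35 and 4.35 in MIRI and 1.68 and 5.51 in GXNI, and its part in the Acta1 difference was not tested.

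Actc1, the cardiac alpha actin, had the highest level of the 8 per kilobase of exon in all 9 libraries. It had 4120, 4276 and 5529 normalised CPM in sham 1 to 3, 5314, 8733 and 10465 in MIRI 1 to 3, and 3356, 4881 and 7495 in GXNI 1 to 3. MIRI 1 lay below sham 3, so the groups overlapped. The log2 fold change was 0.83 ± 0.29 (SE, adjusted p = 0.136, edgeR) and was not called. It was called with DESeq2 (0.83), without MIRI 1 (1.06) and with the labels exchanged (0.74 ± 0.22, adjusted p = 0.0217, edgeR). The skeletal share of the actin pair was 3.92% ± 0.416 in sham and 4.64% ± 0.663 in MIRI (SD, n = 3 each), a difference of 0.722 percentage points (p = 0.2, adjusted p = 0.45, two-sided exact permutation test). It was 0.345 percentage points without MIRI 1 and 0.825 with the labels exchanged (p = 0.1, exact permutation test).

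Myh6, the adult alpha heavy chain, ranked among the 10 genes with most counts in every library. Its normalised CPM was 16464, 14474 and 15523 in sham 1 to 3, 7398, 13983 and 6598 in MIRI 1 to 3, and 12580, 8247 and 7048 in GXNI 1 to 3. Each of the 6 ischemia-reperfusion libraries lay below each sham library, with MIRI 2 and GXNI 1 closest to sham. The log2 fold change of MIRI against sham was -0.72 ± 0.33 (SE, adjusted p = 0.206, edgeR) and was not called. Without MIRI 2 it was -1.14, and with the labels exchanged it was -1.14 ± 0.09 (adjusted p = 5.517e-05, edgeR), both called lower.

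Myh7, the beta heavy chain of the fetal ventricle, gave no call in any setting of this comparison. It had 391, 197 and 420 normalised CPM in sham 1 to 3, 373, 364 and 304 in MIRI 1 to 3, and 239, 95.4 and 527 in GXNI 1 to 3. All MIRI libraries lay inside the sham range, and the log2 fold change was 0.06 ± 0.29 (SE, adjusted p = 0.902, edgeR). It was 0.26 ± 0.29 (adjusted p = 0.476, edgeR) with the labels exchanged. The Myh7 share of heavy chain counts was 2.32%, 1.34% and 2.63% in sham 1 to 3, 4.80%, 2.54% and 4.41% in MIRI 1 to 3, and 1.86%, 1.14% and 6.96% in GXNI 1 to 3. The means of 2.10% ± 0.673 in sham and 3.92% ± 1.21 in MIRI (SD, n = 3 each) differed by 1.82 percentage points (p = 0.2, adjusted p = 0.45, two-sided exact permutation test). With the labels exchanged the difference was 3.29 percentage points and the groups no longer overlapped (p = 0.1, two-sided exact permutation test, the smallest possible). Myh6 had the greater part of heavy chain counts in every library.

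**Figure D2:**
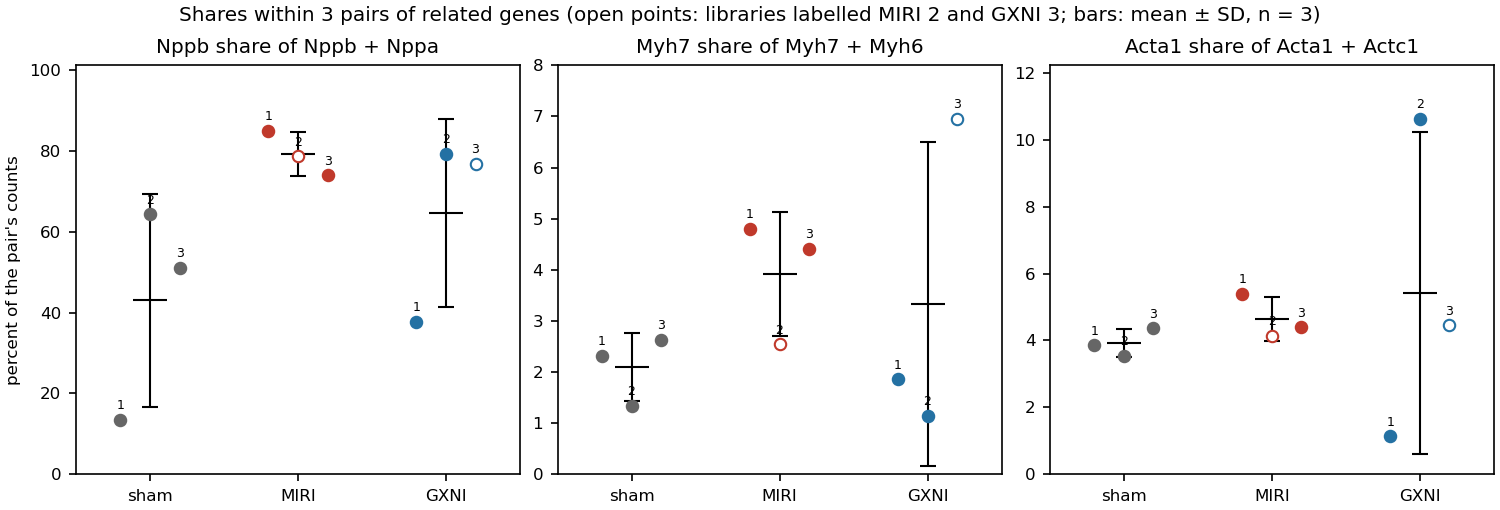
Percent of the counts of each pair (vertical axes, linear, from 0) taken by Nppb, Myh7 and Acta1 in the 9 libraries; points carry the replicate number, open points are the libraries labelled MIRI 2 and GXNI 3, and bars give the mean ± SD of 3 libraries. The Nppb share is lowest in sham 1 (13.5%) and GXNI 1 (37.7%), the Myh7 share is highest in GXNI 3 (6.96%) and the Acta1 share spans 1.14% to 10.6% within GXNI.

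The atrial light chains were near the limit of detection. Myl4, the atrial essential light chain, had 17, 25 and 10 counts in sham 1 to 3, 25, 59 and 44 in MIRI 1 to 3, and 17, 27 and 28 in GXNI 1 to 3. The log2 fold change of MIRI against sham was 1.27 ± 0.50 (SE, adjusted p = 0.156, edgeR), not called, and 0.79 ± 0.37 with the labels exchanged (adjusted p = 0.0979, edgeR). Myl7, the atrial regulatory light chain, had 13, 12 and 1 counts in sham 1 to 3, 0, 30 and 0 in MIRI 1 to 3, and 15, 2 and 0 in GXNI 1 to 3. Its log2 fold change was 0.28 ± 1.52 (SE, adjusted p = 0.915, edgeR), and the 30 counts behind the MIRI mean were all in MIRI 2. With the labels exchanged, all 3 MIRI libraries were at 0 and Myl7 did not pass the filter. With those libraries set to 3 counts each, their mean level was at least 3.04-fold below the sham mean. Sham 3, with 1 count, itself lay under 3 counts, so this bound rests on sham 1 and sham 2. The 5 other atrial markers summed to between 68.0 and 85.7 normalised CPM in sham, 45.9 and 113 in MIRI and 48.4 and 95.9 in GXNI. The highest of these sums was in MIRI 2, the library with the most counts of Myl4 and Myl7. None of the 5 was at 0 in every library, and how much atrial tissue each heart sample held was not tested.

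Over all 6 ischemia-reperfusion libraries against the 3 sham libraries, Nppb was the one gene called. Of the 8 genes, 1 was called higher and 0 lower, where 5.52% of the 15207 genes tested were called higher and 2.85% lower. At an unadjusted p under 0.05 there were 2 higher and 1 lower by edgeR, and DESeq2 called 2 higher and 1 lower, against 5.18% and 2.31% of all genes it tested. The log2 fold change of Nppb was 4.35 ± 1.27 (SE, adjusted p = 0.0914, edgeR), and 5 of the 6 libraries lay above all sham libraries. The Nppb call was lost when sham 1 (3.86), sham 2 (4.52), sham 3 (4.84), MIRI 1 (4.27), MIRI 3 (4.14) or GXNI 3 (3.98) was left out.

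Nppa and Myh6 were not called in the same comparison by edgeR and were called by DESeq2. Nppa gave a log2 fold change of 2.37 ± 0.84 (SE, adjusted p = 0.113, edgeR), also with 5 of 6 libraries above all sham libraries, and was called without GXNI 1 (2.59). Myh6 gave -0.73 ± 0.27 (SE, adjusted p = 0.118, edgeR), with 6 of 6 libraries below all sham libraries, and was called lower without MIRI 2 (-0.88). Acta1 gave 0.89 ± 0.61 (adjusted p = 0.327, edgeR) and was called higher without GXNI 1 (1.13), the library with its lowest level. The remaining values were 0.54 ± 0.33 for Actc1, 0.94 ± 0.47 for Myl4, -0.07 ± 0.44 for Myh7 and -0.09 ± 1.34 for Myl7 (adjusted p from 0.209 to 0.968, edgeR). The difference in the Nppb share was 29.0 percentage points (p = 0.119, adjusted p = 0.45, two-sided exact permutation test), and those in the Myh7 and Acta1 shares were 1.52 (p = 0.333) and 1.11 (p = 0.548) percentage points by the same exact test. Without sham 1 the Nppb value was 14.2, without GXNI 3 the Myh7 value was 0.854, and the Acta1 value was -0.0157 without GXNI 2 and 1.88 without GXNI 1.

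In GXNI against MIRI, which asks what the injection changed after ischemia and reperfusion, no gene of the 8 was called under the deposited labels. Of 7 genes tested, 0 were called higher and 0 lower by edgeR, where 0% of the 14762 genes tested were called higher and 0.0203% lower. None of the 7 had an unadjusted p under 0.05, and DESeq2 also called 0, against 0.0142% higher and 0.0249% lower of all genes it tested. The log2 fold changes were -0.30 ± 1.01 for Nppa, -0.48 ± 1.24 for Nppb, -0.0043 ± 0.41 for Myh6, -0.27 ± 0.56 for Myh7, -0.26 ± 0.80 for Acta1, -0.63 ± 0.39 for Actc1 and -0.77 ± 0.50 for Myl4 (SE, adjusted p = 1, edgeR). The libraries of GXNI differed widely, as normalised CPM of Nppb ran from 32.7 to 2416 and that of Acta1 from 38.8 to 581. The share differences were -14.6 percentage points for Nppb (p = 0.5), -0.597 for Myh7 (p = 0.8) and 0.770 for Acta1 (p = 0.8, two-sided exact permutation tests). The Nppb value was -1.14 without GXNI 1. The Myh7 value was -2.42 without GXNI 3 and 0.492 without GXNI 2, and the Acta1 value 2.90 without GXNI 1 and -1.84 without GXNI 2.

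With the labels of MIRI 2 and GXNI 3 exchanged, the same comparison had 1 gene called lower and 0 higher of 7 tested, where 10.7% of 14762 genes were called lower and 8.56% higher. That gene was Nppa, at a mean of 105 ± 54.7 normalised CPM in GXNI and 552 ± 257 in MIRI (SD, n = 3 each). Its log2 fold change was -2.37 ± 0.48 (SE, adjusted p = 0.0192, edgeR), and all GXNI libraries lay below all MIRI libraries under this grouping. Nppb had a like fold change of -2.50 ± 0.82 (SE, adjusted p = 0.0574, edgeR), with means of 337 ± 286 in GXNI and 1929 ± 480 in MIRI. Myh6 went the other way by 0.74 ± 0.23 (SE, adjusted p = 0.0497, edgeR), with means of 11603 ± 2990 in GXNI and 7015 ± 401 in MIRI. Neither was called, and the groups did not overlap for either gene. Myh7 (-0.77 ± 0.44), Acta1 (-0.17 ± 0.73), Actc1 (-0.43 ± 0.37) and Myl4 (0.27 ± 0.52) had adjusted p from 0.217 to 0.88 (edgeR). Myl7 was under the filter, with 0 counts in all 3 MIRI libraries of this grouping and 15, 2 and 30 counts in the GXNI libraries, the 30 in the library labelled MIRI 2. The Myh7 share was 1.85% ± 0.698 in GXNI and 5.39% ± 1.37 in MIRI (SD, n = 3 each), a difference of -3.54 percentage points with no overlap (p = 0.1, two-sided exact permutation test, the smallest possible). The differences of the Nppb and Acta1 shares were -13.4 (p = 0.6) and 0.563 (p = 1) percentage points by the same exact test. With both libraries left out instead of exchanged, Nppa was again called (-2.59 ± 0.51, adjusted p = 0.188, edgeR). The MIRI libraries enter this comparison and the one with sham, so opposite signs of a gene in the 2 are not independent of each other.

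**Figure D3:**
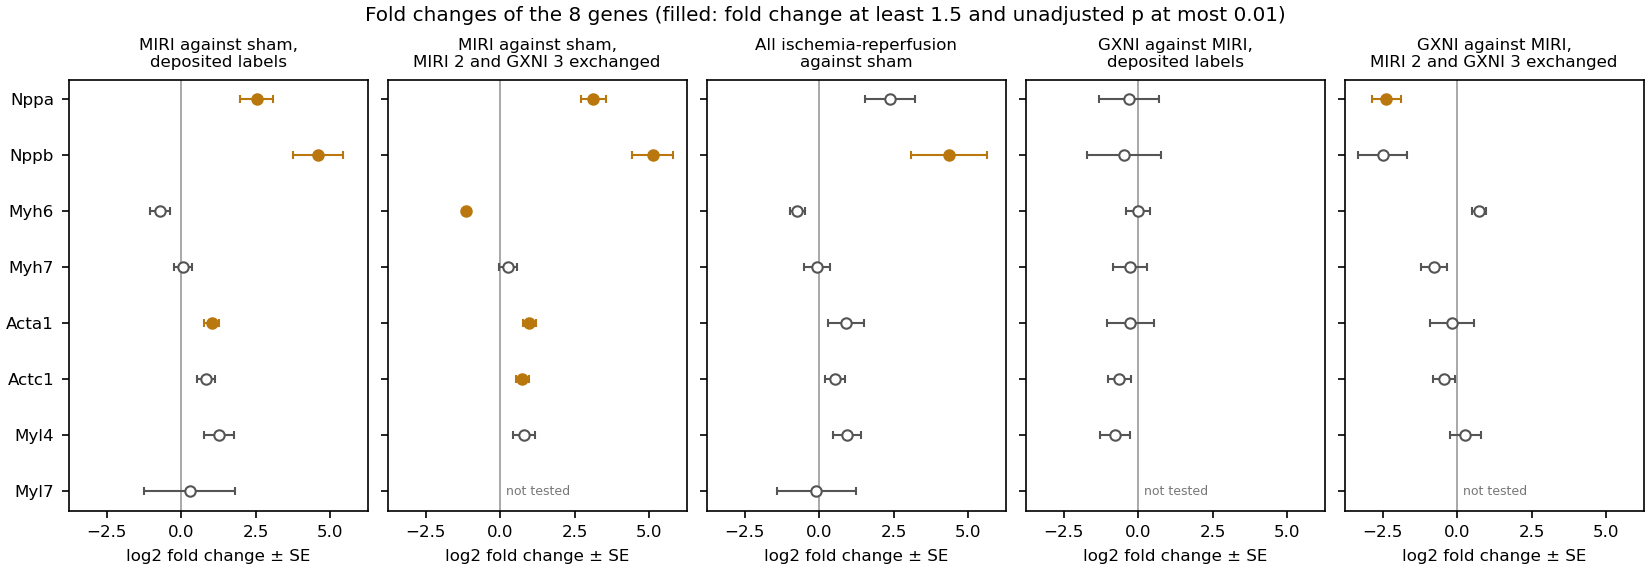
Log2 fold change ± SE (horizontal axes) of the 8 genes by edgeR, for each comparison and for the exchanged labels of MIRI 2 and GXNI 3. Filled points were called; Under the deposited labels, 3 genes are filled for MIRI against sham (Nppa, Nppb and Acta1) and 0 for GXNI against MIRI, where Nppa (-2.37) is filled with the labels exchanged.

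Markers of other cells also differed between the libraries. The 4 neutrophil markers, of which none was at 0 in every library, summed to between 23.2 and 42.8 normalised CPM in sham. The sum was 536 in MIRI 1, 21.8 in MIRI 2 and 422 in MIRI 3, and 37.3 in GXNI 1, 158 in GXNI 2 and 463 in GXNI 3. Nppb was highest in MIRI 3, MIRI 1 and GXNI 3, where this sum was also highest, whereas MIRI 2 had the lowest sum with an Nppb level of 602, above that of GXNI 2. The 7 general cardiomyocyte markers, of which none was at 0 in every library, summed to between 22686 and 24647 in sham, 15818 and 22883 in MIRI and 15925 and 21837 in GXNI, and the 4 ventricular markers to between 9716 and 10642 in sham, 7053 and 9532 in MIRI and 7808 and 8923 in GXNI. GXNI 1, the library with the lowest Acta1, had the highest sums of fibroblast markers (1078, others 502 to 903) and of mesothelial markers (63.8, others 8.93 to 20.4). The part of these tissue differences in the values of the 8 genes was not tested.

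Counts over the 4 lists of other genes that follow stand against the shares of all genes tested in MIRI against sham. These were 6.15% higher and 2.82% lower by edgeR, 5.34% and 2.72% by DESeq2, 19.2% and 16.6% with the labels exchanged, and 16.9% and 13.3% without MIRI 2. The natriuretic peptide signal depends on a protease that makes the active peptides, on receptors, on enzymes that destroy the peptides and on the cyclic GMP pathway. Of 13 further genes of this axis, 12 were tested in MIRI against sham, of which 0 were called higher and 1 lower by edgeR, with 0 higher and 3 lower at an unadjusted p under 0.05 and 1 higher and 2 lower by DESeq2. The gene called was Mme, which encodes neprilysin, the protease that degrades natriuretic peptides, with normalised CPM between 5.67 and 8.73 in sham and between 1.43 and 3.88 in MIRI (-1.50, adjusted p = 0.0981, edgeR). The guanylyl cyclase receptor gene Npr1 gave -0.21 (adjusted p = 0.597, edgeR), Npr2, the receptor for C-type natriuretic peptide, -0.43 and the clearance receptor gene Npr3 0.22, none of them called. Nppc, the gene of C-type natriuretic peptide, was under the filter, with 0 counts in every sham library and between 1 and 29 in MIRI. The median log2 fold change of the 12 was -0.22. With the labels exchanged, 0 were higher and 6 lower. They were Mme (-1.95), the soluble guanylyl cyclase subunit genes Gucy1a1 (-1.37) and Gucy1b1 (-0.80), Npr2 (-0.84), Corin (-0.80), the protease that activates atrial natriuretic peptide, and the phosphodiesterase gene Pde5a (-0.77). Without MIRI 2, 0 were higher and 4 lower. The median was -0.60 with the labels exchanged.

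Of 18 other genes of the fetal and stress response of cardiac muscle, 17 were tested in MIRI against sham and 10 were called higher and 1 lower. The median log2 fold change of the 17 was 1.26. The called genes of smallest p were Fhl1 (3.06, adjusted p = 0.0363, edgeR), a LIM protein of the sarcomere, Ccn2 (3.73), connective tissue growth factor, and Xirp2 (2.96), a protein of the intercalated disc. Fhl1 had between 130 and 163 normalised CPM in sham and 1318, 866 and 1477 in MIRI 1 to 3. Myh7b, another heavy chain gene of slow muscle, fell by 2.28 on the log2 scale, from between 42.6 and 55.7 normalised CPM in sham to between 7.07 and 15.9 in MIRI. Tnni1, the troponin I of the fetal heart, was under the filter with between 0 and 6 counts. Exchanging the labels gave 12 higher and 1 lower with a median of 1.38, leaving out MIRI 2 gave 12 higher and 3 lower, and over all 6 ischemia-reperfusion libraries 7 were higher and 1 lower, with Ccn2 at 3.47, Fhl1 at 2.78, Xirp2 at 2.80 and Myh7b at -1.93.

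Of 15 adult cardiac muscle genes, all were tested and 0 were called higher and 2 lower by edgeR, with 0 higher and 4 lower at an unadjusted p under 0.05 and 0 higher and 3 lower by DESeq2. The 2 were Kcnip2 (-1.92, adjusted p = 0.0662, edgeR), a subunit of the channel of the transient outward potassium current, and Tcap (-1.54, adjusted p = 0.1, edgeR), the titin cap of the Z-disc. The median of the 15 was -0.49, with 0 higher, 10 lower and a median of -0.84 when the labels were exchanged and 0 higher and 11 lower without MIRI 2. Most of the general cardiomyocyte markers summed above, Tcap among them, and some of the ventricular markers also belong to these 15 genes. The marker sums and the values of this list are therefore not separate observations. Of 29 regulators of the program, 2 were called higher and 0 lower by edgeR, with 3 higher and 2 lower at an unadjusted p under 0.05 and 2 higher and 1 lower by DESeq2. That is close to the share of all genes called higher (6.15%). After exchange of the labels, or without MIRI 2, 3 were higher and 9 lower, and the median moved from -0.11 to -0.21 with the exchange. The 2 called under the deposited labels were Rcan1 (2.24, adjusted p = 0.0662, edgeR), a target and inhibitor of calcineurin signalling, and Srf (0.67, adjusted p = 0.0767, edgeR), the serum response factor that binds CArG boxes. Srf had between 74.3 and 87.9 normalised CPM in sham and between 98.5 and 150 in the 6 ischemia-reperfusion libraries, without overlap. Gata4, a factor that binds GATAA, gave 0.37 and was not called. Over all 6 ischemia-reperfusion libraries, the calls were again Mme (-1.33) in the natriuretic axis, Kcnip2 (-1.80) and Tcap (-1.69) among the adult genes, and Rcan1 (2.23) and Srf (0.59) among the regulators, where 5.52% of all genes were called higher and 2.85% lower.

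The thyroid hormone receptor genes Thra and Thrb, whose products raise Myh6 and lower Myh7 in the adult ventricle, gave -0.28 and -0.65 in MIRI against sham and were not called. After exchange of the labels they were called lower at -0.79 (adjusted p = 0.00134, edgeR) and -1.28 (adjusted p = 0.00105, edgeR). Mhrt, the noncoding RNA that overlaps Myh7 on the opposite strand, had 36.0, 14.2 and 43.4 normalised CPM in sham 1 to 3, 6.28, 20.7 and 5.76 in MIRI 1 to 3, and 25.3, 14.2 and 5.69 in GXNI 1 to 3. Its log2 fold change of MIRI against sham was -1.51 (adjusted p = 0.163, edgeR), not called, and with the labels exchanged it was called at -2.40 (adjusted p = 0.000828, edgeR). The lowest values of Mhrt were in MIRI 1, MIRI 3 and GXNI 3, where Myh6 was also lowest and Myh7 was not low.

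In GXNI against MIRI under the deposited labels, edgeR and DESeq2 each called 0 genes of all 4 lists. At an unadjusted p under 0.05, edgeR had 1 gene lower among the fetal and stress genes (Acta2, -0.65) and 0 in the other lists. Acta2 is also among the smooth muscle markers used here, and the cell type behind its difference was not tested. The medians were 0.07 for the natriuretic axis, -0.22 for the fetal and stress genes, 0.05 for the adult genes and -0.01 for the regulators, against 0.00 for all genes tested. Exchanged labels, with which 8.56% of all genes were called higher and 10.7% lower, gave medians of 0.63, -0.87, 0.86 and 0.35 in the same order. The natriuretic axis then had 3 called higher and 0 lower (Npr2, Gucy1a1 and Mme), the fetal and stress genes 1 higher (Myh7b) and 5 lower (Ccn2, Slc2a1, Xirp1, Ankrd2 and Actn1), the adult genes 7 higher and 0 lower (with Cacna1c, Ryr2 and Kcnip2 of smallest p), and the regulators 6 higher (with Mhrt, Klf15 and Tbx5 of smallest p) and 2 lower (Rcan1 and Tead4).

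**Figure D4:**
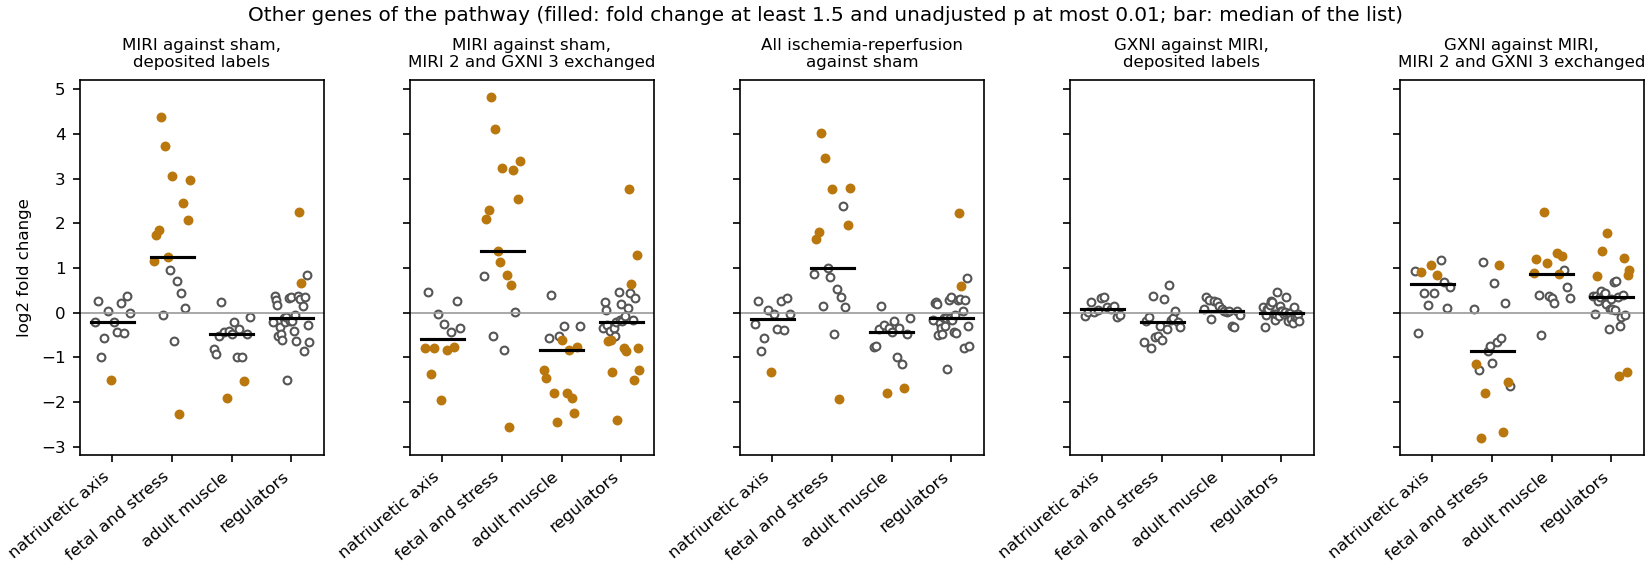
Log2 fold change (vertical axis) of each tested gene of 4 lists, by comparison and with the labels of MIRI 2 and GXNI 3 exchanged; filled points were called and bars are list medians. For GXNI against MIRI the fetal and stress genes have a median of -0.22 under the deposited labels and -0.87 with the labels exchanged, and for MIRI against sham 1.26 and 1.38.

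Among 15207 genes that passed the filter over all 9 libraries, the genes most like each member were found by Pearson's r of log2 CPM over the 9 libraries, as a description. For Nppa they were Eif4ebp1 (r = 0.988), Gm13054 (0.983), which overlaps Nppa on the opposite strand, and Vps37b (0.981). For Nppb they were Tnfrsf12a (0.978), Fam198b (0.977) and Dusp27 (0.973), and for Myh6 A530016L24Rik (0.994), Tmem179 (0.991) and Runx1t1 (0.989). For Acta1 they were Slc25a44 (0.970), Serpinb1c (0.957) and Tubb4b (0.956), and for Actc1 Ywhae (0.980), Fbxo34 (0.973) and Atp1b1 (0.958). Myh7 had no gene above 0.905 (Ppil4), followed by Gm15726 (0.883) and G530011O06Rik (0.879). Myl4 was most like Eny2 (0.949), Ddx19a (0.923) and Gm2225 (0.903), and Myl7 most like Glt28d2 (0.966), Gm14117 (0.956) and Pdzd7 (0.953), with few counts behind both. Between members, r was 0.871 for Nppa and Nppb, -0.844 for Nppb and Myh6, 0.726 for Acta1 and Actc1 and 0.066 for Myh6 and Myh7. The points share the 9 libraries and the spread along the first principal component.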

How the data were processed

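Heart RNA of 3 sham, 3 MIRI and 3 GXNI mice was sequenced. After quality filtering of the reads, the authors mapped them to mm10 (HISAT2) and assigned them to genes (featureCounts). Tool versions and the strand setting are not given in the sources used here. The deposited values are these counts for 54532 gene identifiers, without normalization, 54409 of them paired with a GENCODE M21 symbol. The paper's fold changes were used only to check the grouping.

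Each comparison was fitted on its own libraries with edgeR 4.0.16 in R 4.3.3 (TMM normalization, default filter on low counts, quasi-likelihood F test, no covariates). Calls used the study's thresholds, a difference of 1.5-fold or more with p at or below 0.01 before adjustment, and printed p-values are Benjamini-Hochberg adjusted. An SE is the log2 fold change divided by the square root of F. Normalised CPM used TMM factors over 9 libraries, and log2 CPM a prior count of 0.5. Shares of pairs were compared with exact permutation tests. A group with 3 counts or fewer in every library was set to 3 counts per library, which covers counting error only. Levels between genes were compared per kilobase of the exons merged over transcripts.

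Alternatives were DESeq2 1.42.0, RLE normalization, no filter, 1 fit of 9 libraries, the replicate number as a block, an adjusted p of at most 0.05, leaving out each library, and exchanging or leaving out MIRI 2 and GXNI 3. The 8 genes, the lists, the exchanged labels and the motifs were chosen with earlier results of these data known. Named beside the 8 were their 3 most similar genes, the called list genes under the deposited labels (if over 6, the 3 of smallest p in each direction) and Gata4, Srf, Thra, Thrb, Mhrt and Npr1 to Npr3 by rule. Some list genes called only with the labels exchanged were named as well. Nppc, Tnni1 and Acta2 were added after their values were seen. The study gives 3 independent animals per group, while the labels do not say which library came from which animal. Promoters came from RefSeq (GRCm38.p6), with 250 bases before and 50 after the start. On simulated counts with 200 changed genes, edgeR called 190 of the 193 tested for MIRI against sham. The simulation gave every gene the same dispersion and every changed gene the same size of change. It is a check of the code and does not measure the power in these libraries. No 2 libraries of a group agreed within sampling noise (chi-square per degree of freedom at least 14.4).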

Additional observations from a re-analysis of the deposited data

Results flagged for a closer look

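Over the 6 ischemia-reperfusion libraries, the Nppb share of Nppb plus Nppa counts was 37.7% in GXNI 1, while the other 5 lay between 74.0% and 85.0%. The gap to the nearest library was 0.767 of the whole range, above Dixon's critical value for 6 values. It was the 1 library set apart in this way among 11 measures tested, and chance sets apart a library in about 1 group in 20. GXNI 1 also had the lowest Acta1 level of all libraries, at 38.8 normalised CPM, and a neutrophil marker sum of 37.3 normalised CPM, within the sham range.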

How the results depend on the processing

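In MIRI against sham, the 3 edgeR calls became 0 with all 9 libraries in 1 fit and 0 at an adjusted p of at most 0.05. They became 5 with the labels of MIRI 2 and GXNI 3 exchanged. They became 6 when the exchange was combined with no filter or with DESeq2, 2 alternatives chosen after seeing the data. Of all genes tested, 12.1% were then called higher and 10.4% lower with no filter, and 10.7% and 9.14% with DESeq2. By DESeq2 under the deposited labels, adjusted p was 3.2e-05 for Nppb, 6.0e-05 for Nppa, 0.0063 for Acta1 and 0.043 for Actc1. It was 0.113 to 0.928 for the other genes. By edgeR with no filter, adjusted p was 0.0035 for Nppb, 0.0096 for Nppa and 0.031 for Acta1, and 0.126 to 0.923 for the others. Leaving out 1 library gave between 1 and 4. Across these fits, the share of all genes called higher ran from 2.25% without sham 2 to 16.9% without MIRI 2. The share called lower was also largest without MIRI 2, at 13.3%. In GXNI against MIRI, the 0 calls became 1 with the exchange or with both libraries left out, 5 with the exchange and no filter, and 3 with the exchange and DESeq2. With the exchange and no filter, 6.63% of all genes were called higher and 7.92% lower. With the exchange and DESeq2 these shares were 5.32% and 6.78%. Over all ischemia-reperfusion libraries against sham, the 1 edgeR call became 3 with DESeq2, 2 with no filter and 0 at an adjusted p of at most 0.05. It became between 0 and 3 when 1 library was left out, where 1.63% to 9.67% of all genes were called higher and 1.34% to 5.7% lower. With no filter, 4.18% were called higher and 2.24% lower. By DESeq2, adjusted p was 0.00259 for Nppb, 0.012 for Nppa and 0.0604 for Myh6. The cause of these shifts was not tested. Over all genes tested in MIRI against sham, the 900 higher and 413 lower calls became 1491 and 760 with DESeq2, 1603 and 803 with no filter, 535 and 265 with all 9 libraries in 1 fit, 2571 and 2021 without MIRI 2, and 2848 and 2462 with the exchange. In GXNI against MIRI, the 0 higher and 3 lower calls became 4 and 7 with DESeq2, 228 and 520 with both libraries left out and 1264 and 1575 with the exchange. Over all ischemia-reperfusion libraries, the 840 higher and 434 lower calls became 1519 and 677 with DESeq2, 254 and 209 without sham 2 and 1466 and 722 without MIRI 2. Nppa, Nppb, Acta1 and Actc1 were positive and Myh6 negative under every alternative run against sham.

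Several log2 fold changes changed sign under an alternative. In MIRI against sham, leaving out 1 library gave -0.22 to 0.24 for Myh7 and -6.22 to 0.91 for Myl7. The -6.22 came without MIRI 2, and the exchange gave -6.18 for Myl7 with no filter and -5.64 with DESeq2. In each of these fits all MIRI libraries are at 0 for Myl7, so that none of these values is a bound. Over all ischemia-reperfusion libraries, Myh7 ran from -0.35 to 0.12 and Myl7 from -1.39 to 0.37. In GXNI against MIRI, leaving out 1 library gave -2.25 to 0.47 for Nppa, -2.69 to 0.0821 for Nppb, -0.30 to 0.42 for Myh6, -1.05 to 0.14 for Myh7 and -0.99 to 0.26 for Acta1, the lowest values of Nppa, Nppb and Myh7 without GXNI 3. Myh6 was 0.74 with the exchange, 0.74 with no filter added, 0.73 with DESeq2 added and 0.59 with both libraries left out, and Myl4 0.27, 0.27 and 0.27 under the first 3. The Myh7 share difference of MIRI against sham moved to 3.29 percentage points with the exchange. In GXNI against MIRI, the Myh7 share difference ran from -2.42 to 0.492 and the Acta1 share difference from -1.84 to 2.90 percentage points without 1 library. The Acta1 share difference of all ischemia-reperfusion libraries against sham ran from -0.0157 to 1.88.

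Whether the replicate numbers pair the libraries could not be told. The group means used here include MIRI 2 and GXNI 3, whose labels are in doubt. Deviations of same-numbered libraries from their group means correlated at -0.445, 0.128 and 0.701 between MIRI and GXNI, and between -0.0851 and 0.118 for sham with either group. With the number as a replicate block, the calls were 3 in MIRI against sham, 0 in GXNI against MIRI and 2 over all ischemia-reperfusion libraries (Nppa added), and the block gave -0.51 for Myl7 in MIRI against sham and 0.0402 for Myh6 in GXNI against MIRI. Of all genes tested with the block, 4.77% were called higher and 2.51% lower in MIRI against sham. The shares were 0.0135% and 0.00677% in GXNI against MIRI, and 5.92% and 3.95% over all ischemia-reperfusion libraries. At these depths Myl4 and Myl7, with at most 59 and 30 counts in a library, gave no call by edgeR in any comparison under the deposited labels. Without MIRI 2, Myl7 had an adjusted p of 0.0381 in MIRI against sham (edgeR), where the MIRI libraries left had 0 counts.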
